A study of Mus musculus with 4 samples.

Results

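The 9 transcription factor genes Runx1, Runx2, Runx3, Sp7, Dlx3, Dlx5, Dlx6, Msx1 and Msx2, which act in bone and cartilage lineages, were taken by symbol from tables of 18702 genes measured in the embryonic mouse eye. All 9 symbols were present. The libraries came from total RNA of eye tissue of C57BL/6 embryos, 2 of the genotype labelled KO (Anp32b−/−) and 2 of the genotype labelled WT (Anp32b+/+). Anp32b encodes an acidic nuclear phosphoprotein that binds histones, and the study asked how its loss bears on Pax6 and on the growth of the eye. The labels do not state the age or sex of the embryos, the design of the null allele or any pooling of embryos. They also do not say whether the replicates were separate embryos, so each p-value reflects the spread among the libraries alone, which may be technical.

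Bone-forming cells are set up in steps by these factors. RUNX proteins bind DNA through the Runt domain together with their partner Cbfb. Runx2 is required for cells to become osteoblasts, and Sp7 (osterix), a zinc finger protein, acts after Runx2 in the same path. Runx1 is best known as a regulator of blood stem cells and is also present in skeletal progenitors, and Runx3 is known from sensory neurons, T cells and maturing cartilage. The DLX and MSX proteins are homeodomain factors of the neural crest mesenchyme that builds the face and skull. Dlx5 and Dlx6 lie side by side and pattern the jaw, Dlx3 acts in epidermis, hair, teeth and bone, and Msx1 and Msx2 act in teeth, palate and skull sutures. Orbital bone and the mesenchyme around the eye border the tissue that was sampled.

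Promoter windows, 250 bases before a start in the RefSeq table (GRCm38.p6), were available for 5 of the 9 genes in 7 windows. Other annotated transcripts can begin further upstream. Exons that GENCODE annotates covered all 250 bases of the Msx2 window, 170 of the Runx2 window and 53 of the distal Runx3 window, and none of the Msx1 window. They were searched on both strands for AACCACA, the letters RUNX proteins bind, for TAATTA, a homeodomain core that reads the same on both strands, and for GGGCGG, a GC box bound by SP proteins, and no matches overlapped. AACCACA stood in 4.4% of all 32851 windows, TAATTA in 4.84% and GGGCGG in 32.7%. The single Runx2 window held 1 AACCACA, with its first base 81 bases before the start, and the distal Runx3 window held 2, at 135 and 127 bases. Neither Runx1 window held any of the 3 motifs. The Msx2 window held 1 TAATTA at 187 bases and 1 GC box at 160 bases, and the proximal Runx3 window held 3 GC boxes. Stretches of 30 bases around these matches are given because Runx2 and Runx3 carry the letters that their own protein family binds and Msx2 those of its own. The Msx1 window, which held 1 GC box in reverse at 72 bases and neither other motif, is given whole as the promoter of the called member that was lower. The Runx2 and Msx2 stretches lie wholly in annotated exon sequence, and the Runx3 stretch lies outside it. Capitals mark the matched letters.
Runx2, chr17:44814690-44814719, minus strand: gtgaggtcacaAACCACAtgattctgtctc
Runx3, chr4:135120503-135120532, plus strand: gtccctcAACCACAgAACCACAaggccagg
Msx2, chr13:53472950-53472979, minus strand: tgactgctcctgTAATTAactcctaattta
Msx1, chr5:37824586-37824835, minus strand: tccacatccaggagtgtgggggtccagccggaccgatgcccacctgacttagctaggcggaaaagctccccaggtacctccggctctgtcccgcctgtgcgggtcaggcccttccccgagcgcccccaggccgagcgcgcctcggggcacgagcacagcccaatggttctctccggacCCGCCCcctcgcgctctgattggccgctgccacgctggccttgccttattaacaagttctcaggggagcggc

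The libraries held about 18120000 and 18020000 fragments for KO and 18180000 and 18040000 for WT, as estimated from the spacing of low values. Levels are in FPKM, fragments scaled to transcript length and to the library total, so they can be compared between genes. The targeted gene Anp32b stood at 94.5 and 92.7 FPKM in KO and at 163.2 and 179.1 FPKM in WT. Its KO mean was 54.7% of the WT mean, lower but not absent, and a value per gene does not show which exons the reads came from. Pax6, the eye regulator in the study's title, stood at 107.8 and 111.0 FPKM in KO and at 160.9 and 158.4 FPKM in WT. A mean of 1 FPKM or more was reached by 13887 genes, of which limma on log2(FPKM + 1) called 54.6% at a Benjamini-Hochberg adjusted p under 0.05, 33.5% higher in KO and 21.1% lower. A call is therefore common in this comparison. Of the called genes 61.3% were higher, against 80.6% with the deposited TPM, which are the FPKM rescaled to an equal sum per library. The share was 50.6% after scaling by the median of ratios and 44.9% after scaling on all genes but crystallin and erythroid ones. The median log2 fold change of all tested genes was 0.04 with FPKM and 0.16 with TPM. Crystallins made up 1.43% of the FPKM sum in each KO library and 15.0% and 14.9% in the WT libraries.

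Sp7, Dlx5, Runx1 and Runx2 rose in KO eyes and Msx1 fell, while Dlx3 did not pass the test. On the log2(FPKM + 1) scale the largest changes were in Sp7 and Dlx5. Both were near the floor in WT, so they reached the 1 FPKM mean only through the KO libraries. A gene admitted in that way had to differ, and the 4 rises among 6 members tested are therefore a description, with no support drawn from the count. Of the 4 members with a WT mean of at least 1 FPKM, 2 rose (Runx1 and Runx2), 1 fell (Msx1) and 1 was not called (Dlx3), beside 33.5% and 21.1% of all genes. Runx3, Dlx6 and Msx2 were under the minimum. Both KO values lay beyond both WT values in all 9 members, above them in 7 and below them in Msx1 and Msx2. Runx3, Dlx6 and Msx2 are not among the 13887 genes tested. Over those genes the same separation held for 77.9%, with KO above WT in 45.6% and below it in 32.4%. In such bulk tissue, a change in the number of cells of a type and a change in RNA per cell cannot be told apart.

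**Figure D1:**
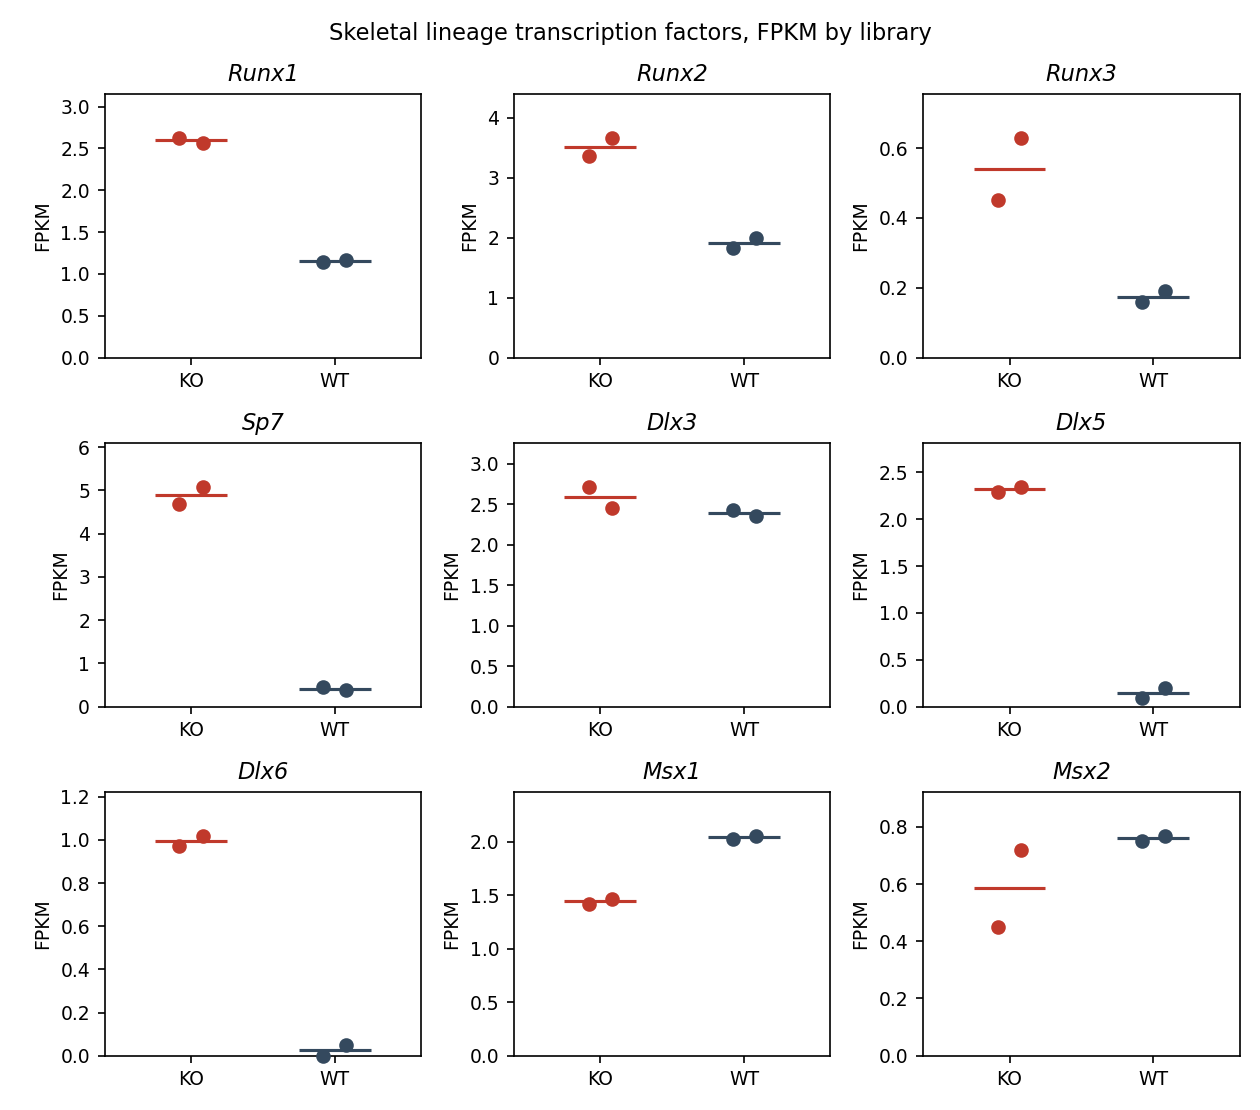
FPKM of each of the 9 genes (vertical axes, each from 0 and on its own scale) in the 2 KO and 2 WT libraries, with points for libraries and a line for the group mean. Sp7, Dlx5 and Dlx6 lie close to 0 in WT and at 4.68 and 5.09, 2.29 and 2.35, and 0.97 and 1.02 FPKM in KO, whereas the Dlx3 points of the groups nearly meet.

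Sp7 (Entrez 170574, chromosome 15, positions 102356606 to 102367182, minus strand, GRCm38 as for all members) had the largest log2 fold change of the members on the log2(FPKM + 1) scale. It had 4.68 and 5.09 FPKM in KO eyes and 0.46 and 0.38 FPKM in WT eyes. At the estimated depth and the longest of its GENCODE transcripts paired with RefSeq these values amount to about 263 and 284 fragments in KO and 26 and 21 in WT. Both KO libraries were far above both WT libraries, and the KO mean was 11.6 times the WT mean, with an interval of 8.63 to 16.0 for the ratio of fragments (95%, exact binomial, counting error only). The log2 fold change on the log2(FPKM + 1) scale was 2.05 (SE 0.09, limma adjusted p = 4.8e-06), the 7th highest of 13887 genes. The plain ratio of the KO mean to the WT mean was larger in Dlx6 (39.8) and Dlx5 (16.0), on fewer fragments. In WT eyes Sp7 was the 6th of the 9 members by level and in KO eyes the 1st, above Runx2.

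Of the RUNX genes, Runx2 (Entrez 12393, chromosome 17, positions 44495987 to 44814797, minus strand) was the most abundant in every library. It had 3.37 and 3.67 FPKM in KO and 1.82 and 2.0 FPKM in WT, with no overlap of the groups. By limma it rose by 0.64 on the log2 scale (SE 0.08, adjusted p = 0.000628), and the KO mean was 1.84 times the WT mean. Runx1 (Entrez 12394, chromosome 16, positions 92601466 to 92826149, minus strand) had 2.63 and 2.56 FPKM in KO and 1.14 and 1.17 FPKM in WT. The ratio of its means was 2.25 and its log2 fold change 0.74 (SE 0.08, limma adjusted p = 0.00034). Runx3 (Entrez 12399, chromosome 4, positions 135120652 to 135177990, plus strand) was scarce, with 0.45 and 0.63 FPKM in KO and 0.16 and 0.19 FPKM in WT, about 32 and 44 against 11 and 13 fragments. Without the filter on low values, where limma called 39.3% of 18697 genes and 24.5% as higher, Runx3 had a log2 fold change of 0.39 (adjusted p = 0.0169).

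The RUNX genes summed to 6.45 and 6.86 FPKM in KO and to 3.12 and 3.36 FPKM in WT. Runx2 made up 52.2% and 53.5% of the sum in KO and 58.3% and 59.5% in WT, so its share was smaller in KO although its level was higher. Runx1 made up 40.8% and 37.3% in KO and 36.5% and 34.8% in WT. The remaining share, 7.0% and 9.2% in KO and 5.1% and 5.7% in WT, was Runx3.

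Dlx5 and Dlx6 (Entrez 13395 and 13396) are neighbours on chromosome 6, Dlx6 on the plus strand at positions 6863334 to 6868568 and Dlx5 on the minus strand at 6877805 to 6882085, with 9236 bases between them. Dlx5 had 2.29 and 2.35 FPKM in KO and 0.09 and 0.20 FPKM in WT, about 59 and 60 fragments against 2 and 5. It rose by 1.54 on the log2 scale (SE 0.10, adjusted p by limma = 3.3e-05), the 23rd highest of all tested genes. The ratio of its fragments was 17.0, with a counting interval of 8.0 to 43.2. Dlx6 had 0.97 and 1.02 FPKM in KO, about 19 and 20 fragments. In WT it was listed at 0 in replicate 1, where a count of 0 allows up to 0.154 FPKM (3 fragments), and at 0.05 FPKM, about 1 fragment, in replicate 2. The ratio of fragments, 39 in KO to 1 in WT, had a counting interval of 6.60 to 1579. Without the filter its log2 fold change was 0.96 (limma adjusted p = 0.000829).

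The genes that flank the Dlx5 and Dlx6 pair among those in the tables did not pass the test. Sem1, a proteasome subunit gene 284675 bases from Dlx6, had 121.0 and 127.2 FPKM in KO and 104.5 and 124.9 FPKM in WT (log2 fold change 0.12, limma adjusted p = 0.23). Sdhaf3, an assembly factor gene of succinate dehydrogenase 73902 bases from Dlx5, had 5.95 and 6.88 FPKM in KO and 6.31 and 6.60 FPKM in WT (log2 fold change −0.01, adjusted p = 0.916). Around all 9 members, 13 of 16 nearest listed genes were tested, of which 1 was called higher and 2 lower. Over all genes tested 33.5% were called higher and 21.1% lower.

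Dlx3 (Entrez 13393, chromosome 11, positions 95120119 to 95125296, plus strand) differed little. It had 2.72 and 2.45 FPKM in KO and 2.43 and 2.35 FPKM in WT, so that the lower KO value was within 0.02 FPKM of the higher WT value. The log2 fold change was 0.08 (95% interval −0.11 to 0.27, limma adjusted p = 0.433). Dlx3 supplied 96.4% and 90.4% of the summed FPKM of Dlx3, Dlx5 and Dlx6 in WT eyes, where it was the most abundant of the 9 members, but 45.5% and 42.1% in KO eyes. All 6 DLX genes summed to 14.95 and 15.51 FPKM in KO and to 7.57 and 8.46 FPKM in WT. Dlx1, which with Dlx2 is known from forebrain and retinal neurons, was the most abundant DLX gene in every library. It had 6.19 and 6.67 FPKM in KO and 3.01 and 3.73 FPKM in WT (log2 fold change 0.77, adjusted p = 0.00044).

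**Figure D2:**
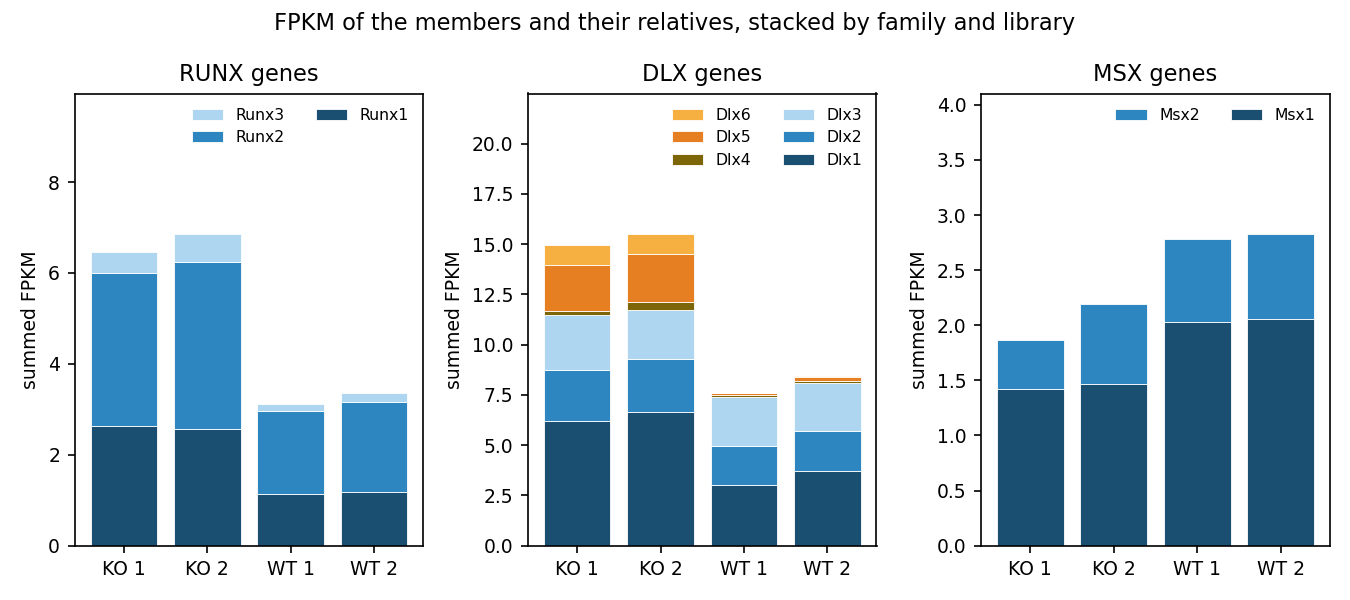
Summed FPKM (vertical axes, from 0) of the RUNX, DLX and MSX genes in each KO and WT library, stacked by gene. The DLX sum is 14.95 and 15.51 FPKM in KO against 7.57 and 8.46 FPKM in WT, and the Dlx5 and Dlx6 segments are hardly visible in WT, while the MSX sum is lower in KO.

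Msx1 fell in KO, and Msx2 did not pass a test. Msx1 (Entrez 17701, chromosome 5, positions 37820485 to 37824583, minus strand) had 1.42 and 1.47 FPKM in KO and 2.03 and 2.06 FPKM in WT, about 50 and 51 fragments against 71 and 72. The KO mean was 70.7% of the WT mean, and by limma the log2 difference was −0.32 (SE 0.08, adjusted p = 0.016). The call was lost when any 1 of the 4 libraries was left out, with adjusted p = 0.0673 without KO replicate 1, 0.0542 without KO replicate 2, 0.0547 without WT replicate 1 and 0.0627 without WT replicate 2. Msx2 (Entrez 17702, chromosome 13, positions 53466884 to 53473074, minus strand) had 0.45 and 0.72 FPKM in KO and 0.75 and 0.77 FPKM in WT. The KO libraries differed from each other more than KO replicate 2 differed from WT. Without the filter the log2 fold change of Msx2 was −0.16 (limma adjusted p = 0.274), where 14.8% of all genes were called lower. The MSX sum was 1.87 and 2.19 FPKM in KO and 2.78 and 2.83 FPKM in WT.

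The order of the levels differed between the genotypes. In KO eyes it ran from Sp7 and Runx2 through Dlx3 and Runx1, whose values overlapped, to Dlx5, Msx1 and Dlx6, with Msx2 and Runx3 overlapping at the low end. In WT eyes it ran from Dlx3 through Msx1, Runx2, Runx1, Msx2 and Sp7 to Runx3 and Dlx5, whose values overlapped, and Dlx6 was last. None of the members was abundant. Sp7 in KO replicate 2, the highest value, exceeded 43.1% of the listed genes of its library, and Dlx3, the highest in WT, 34.8% in replicate 1.

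Most of the other skeletal transcription factors rose. On a list of 16, 14 were tested, of which 13 rose and Atf4, a stress and osteoblast factor, was not called (0.01, adjusted p = 0.773). Their median log2 fold change was 0.96, beside 0.04 over all genes tested. Prrx1, a homeobox gene of limb and face mesenchyme, had 27.4 ± 0.01 FPKM in KO and 11.1 ± 0.47 FPKM in WT (SD, n = 2 each, log2 fold change 1.23). The bHLH gene Twist2 (1.16), the zinc finger gene Snai2 of neural crest (1.09) and Mef2c (1.05), which acts in bone, muscle and vessels, rose by similar amounts. Nkx3-2 and Hand2 were below the level tested. Relative to 10 periocular mesenchyme genes, a scaling chosen after the values were seen, 6 of the 14 were called higher and 6 lower, with a median of 0.075. On that scale 1.55% of all genes tested were called higher and 91.1% lower, with a median of −0.85.

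Of the relatives of the DLX and MSX genes, all 4 tested were higher. Besides Dlx1 these were Barx1, a homeobox gene of jaw and stomach mesenchyme (3.12 and 3.07 FPKM in KO, 0.60 and 0.56 FPKM in WT, log2 fold change 1.37, adjusted p = 2.4e-05), Barx2 (0.69) and Dlx2 (0.26). Barx1 passed the minimum only through KO. The number called higher was 3 of 4 with crystallin and erythroid genes left out of the scaling and without each 1 of the 4 libraries. Relative to the mesenchyme genes it was 1, with 2 called lower, beside 1.55% of all genes tested called higher and 91.1% called lower. Dlx4 and Msx3 were under the minimum, at no more than 0.41 FPKM in any library.

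Among 11 genes whose products work with RUNX proteins, 8 rose, 1 fell and 2 were not called, with a median of 0.19. Cbfb, the DNA-binding partner, had 36.8 ± 0.13 FPKM in KO and 32.9 ± 0.38 FPKM in WT (log2 fold change 0.16, adjusted p = 0.00561), so the partner was more abundant than the 3 RUNX genes together in every library. The Groucho-type corepressor Tle2 (0.81) rose most, and the Hippo pathway coactivators Yap1 (0.45) and Wwtr1 (0.36) also rose. On the scale that leaves crystallin and erythroid genes out, 4 were higher and 2 lower. Without KO replicate 1, and likewise without WT replicate 2, fewer were called higher, with medians of 0.17 and 0.18. Relative to the mesenchyme genes 10 were lower and 0 higher, where 91.1% of all genes tested were called lower and 1.55% higher.

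Genes of osteoblasts, many of them known targets of Runx2 and Sp7, were all higher where tested. All 12 tested of 18 rose, with a median of 1.42, but 4 of the 12 passed the minimum only through KO. Of the 8 with a WT mean of at least 1 FPKM, all 8 rose. Ibsp, which encodes bone sialoprotein, had 49.3 and 49.1 FPKM in KO and 1.13 and 0.77 FPKM in WT. The osteopontin gene Spp1 had 85.6 and 87.8 FPKM in KO and 12.8 and 11.9 FPKM in WT. Col1a1 (1.16) and Col1a2 (1.19), collagen chains that connective tissue also makes in bulk, rose by less. Bglap2, Mepe and Tnfsf11 were listed at 0 in both WT libraries. The 18 genes summed to 2568 and 2593 FPKM in KO and to 1222 and 1228 FPKM in WT.

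Cartilage and BMP pathway genes moved in both directions, and most osteoclast genes were too low to test. Of 9 osteoclast genes only Acp5 (2.08), Mmp9 (1.86) and Ctsk (1.27) were above the minimum, and the first 2 of these reached it only through KO, while Dcstamp and Ocstamp were listed at 0 in both WT libraries. Of 9 cartilage genes tested 7 rose, such as Col11a1 (0.97) and Col11a2 (1.04), and 2 fell, with a median of 0.54. Of the 8 with a WT mean of at least 1 FPKM, 6 rose and 2 fell. Those that fell were Col2a1, the main cartilage collagen, with 49.1 ± 0.04 FPKM in KO and 60.4 ± 1.40 FPKM in WT (SD, n = 2 each, log2 fold change −0.29, limma adjusted p = 0.000287), and Col9a1, with 72.05 ± 1.70 FPKM in KO and 79.3 ± 0.59 FPKM in WT (−0.14, adjusted p = 0.00854). Of 4 genes of hypertrophic cartilage tested 3 rose, Mmp13 (2.20), Pth1r (0.86) and Vegfa (0.70), of which Mmp13 passed the minimum only through KO, while Col10a1, the defining collagen of that stage, was at 0.87 and 0.90 FPKM in KO and at 1.12 and 1.43 FPKM in WT and was not called (−0.27, adjusted p = 0.0728). Of 17 BMP pathway genes tested 10 rose, 2 fell and 5 were not called, with a median of 0.20. The receptor gene Bmpr1b had 13.9 ± 0.67 FPKM in KO and 3.63 ± 0.17 FPKM in WT (log2 fold change 1.69, adjusted p = 2.44e-06), the receptor gene Acvr1 (0.51) and the ligand gene Bmp4 (0.46) rose by less, and Id1, a target gene of BMP signalling, fell (−0.48). Of the other Id genes on the list, Id2 fell (−0.37) and Id3 rose (0.15).

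**Figure D3:**
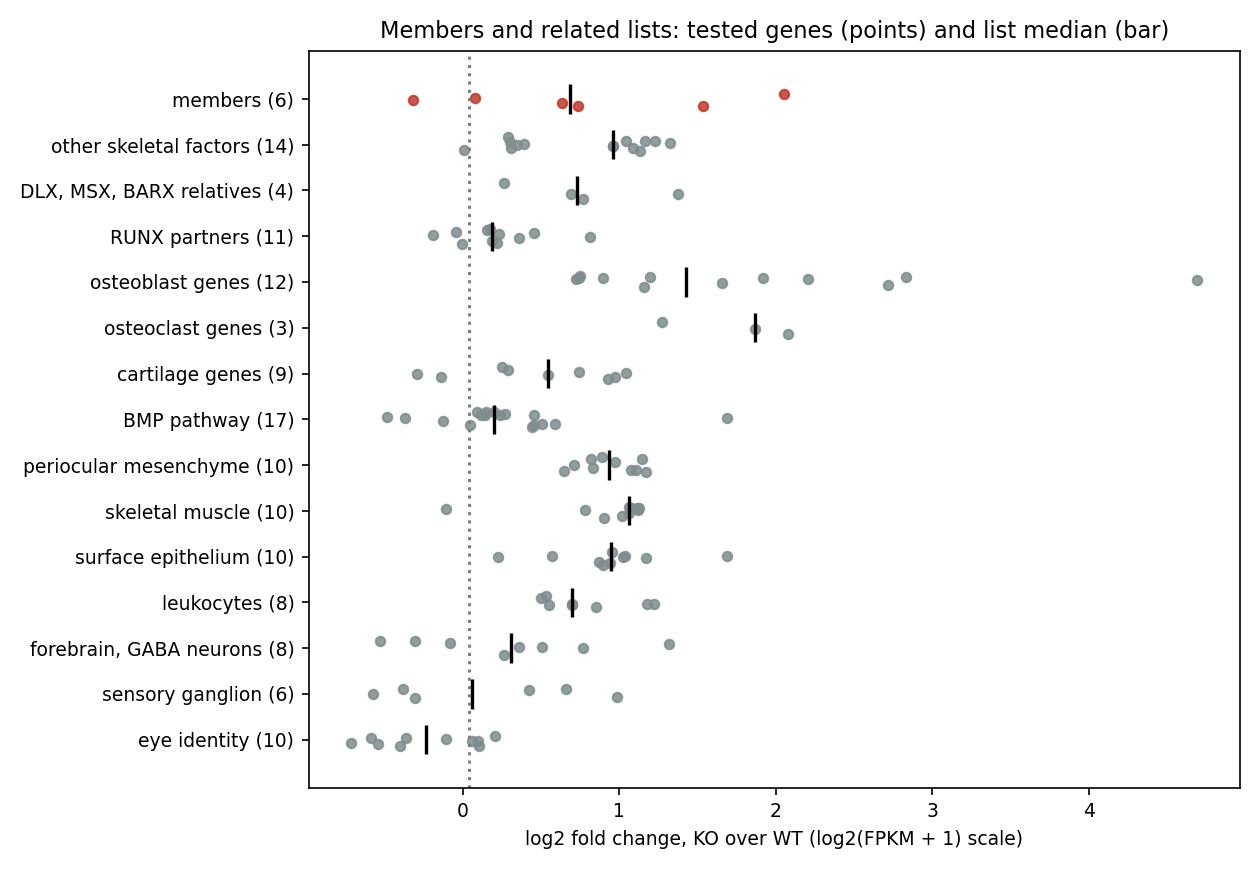
Log2 fold changes, KO over WT, on the log2(FPKM + 1) scale (horizontal axis) of the tested genes of each list (points, number of genes in brackets) with the list median (bar) and the median of all genes tested (dotted line, 0.04). The 6 tested members span −0.32 to 2.05, the 14 other skeletal factors 0.01 to 1.33, and osteoblast genes reach 4.69.

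Markers of other cell types, among them types known to express these factors, also differed between the groups. All 10 periocular mesenchyme genes were higher (median 0.93), summing to 2229 and 2240 FPKM in KO and to 1071 and 1050 FPKM in WT. Of 10 skeletal muscle genes 9 were higher (median 1.06), with sums of 2751 and 2788 FPKM in KO and 1318 and 1387 FPKM in WT. For Runx1, all 8 tested of 10 leukocyte genes were higher (median 0.70, sums of 83.4 and 89.6 FPKM in KO and 44.0 and 40.7 FPKM in WT), and of 3 megakaryocyte genes 2 were higher and 1 lower. Of 7 endothelial genes 6 were higher (median 0.71) and of 7 erythroid genes 6 (median 0.60). Of the 6 erythroid genes with a WT mean of at least 1 FPKM, 5 were higher. For Dlx3 and Msx2, of 10 surface epithelium genes 9 were higher (median 0.95, sums of 1193 and 1188 FPKM in KO and 575.7 and 599.4 FPKM in WT). For Runx1 and Runx3, of 6 tested sensory ganglion genes 3 were higher and 3 lower (median 0.06). For the DLX genes, of 8 tested genes of forebrain and GABA neurons 5 were higher and 2 lower (median 0.31), with Gad1 (−0.53) and Isl1 (−0.31) among the lower. That list itself holds Dlx1 and Dlx2, which are among the 5, so the count is not separate from the DLX results. Of its 7 tested genes with a WT mean of at least 1 FPKM, 4 were higher and 2 lower. Of 10 eye identity genes 6 were lower and 3 higher (median −0.24), and all 16 crystallins were lower (median −3.51). The part of any of these cell types in the results on the members was not tested.

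Relative to the mesenchyme genes Sp7 and Dlx5 rose, Runx1 and Runx2 were not called, and Dlx3 and Msx1 fell. In this comparison, chosen after the values were seen, each library was rescaled to an equal geometric mean over the 10 periocular mesenchyme genes, which put the median of all tested genes at −0.85, with 92.6% called, 1.55% higher and 91.1% lower. Sp7 stood at 5.33% and 5.73% of that mean in KO and at 1.03% and 0.852% in WT, and limma put its log2 difference at 1.49 (SE 0.09, adjusted p = 1.15e-06). Dlx5, at 2.61% and 2.65% in KO and 0.202% and 0.449% in WT, was likewise higher (1.14, adjusted p = 2.26e-05). Sp7 and Dlx5 passed the minimum only through KO here too, so these values are a description, with no support drawn from their p-values.

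Runx1 and Runx2 did not pass the test on that scale. Runx2 was at 3.84% and 4.13% in KO and at 4.08% and 4.49% in WT (log2 fold change −0.074, 95% interval −0.27 to 0.12, limma adjusted p = 0.41). Runx1 was at 3.0% and 2.88% in KO and at 2.55% and 2.62% in WT (0.12, interval −0.09 to 0.32, adjusted p = 0.228). Dlx3 and Msx1 were called lower, as were 91.1% of all genes tested on that scale (median −0.85). Dlx3, at 3.10% and 2.76% in KO and 5.44% and 5.27% in WT, had a log2 fold change of −0.62 (adjusted p = 0.00013), and Msx1, at 1.62% and 1.66% in KO and 4.55% and 4.62% in WT, one of −0.94 (adjusted p = 1.17e-05). On the same scale 8 of the 12 tested osteoblast genes were called higher and 1 lower (median 0.66), and all 3 tested osteoclast genes higher. Since 4 of those 12 and 2 of those 3 passed the minimum only through KO, no support is drawn from these counts. Of 9 cartilage genes 2 were higher and 4 lower, of 4 hypertrophic cartilage genes 1 was higher and 2 lower, and of 17 BMP pathway genes 1 was higher and 15 lower.

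**Figure D4:**
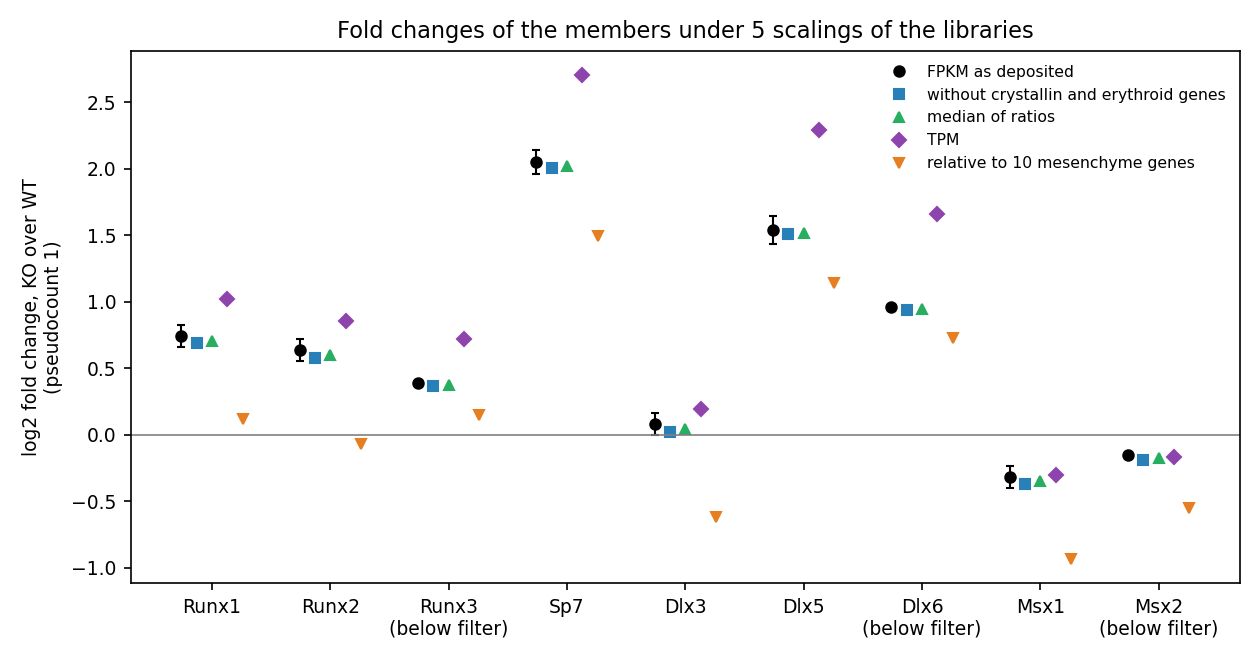
Log2 fold change, KO over WT, of each member with a pseudocount of 1 (vertical axis) under 5 scalings of the libraries, with SE bars on the values of the FPKM as deposited for the 6 tested genes. Sp7 and Dlx5 are above 0 under all 5, Runx1 and Runx2 lie near 0 relative to mesenchyme genes, and Dlx3 is the only gene whose sign turns to a called change (−0.62). Relative to mesenchyme genes 91.1% of all genes tested were called lower, with a median of −0.85.

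Reads of some members could include those of other transcripts. On the opposite strand, Dlx6os2 shares exon sequence with Dlx6, Runx2os1 with Runx2 and Gm26626 with Runx1. The labels do not say if strand was used in counting, so sense and antisense reads of these genes cannot be told apart. Supt3 and other transcripts overlap Runx2, Gm16224 overlaps Runx3 and Dlx6os1 overlaps Dlx6, without shared exon sequence. No overlapping gene was annotated for Sp7, Dlx3, Dlx5, Msx1 or Msx2.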

How the data were processed

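RNA sequencing libraries of eye tissue, 2 KO and 2 WT, were grouped by their titles. The authors deposited 1 table per library with FPKM and TPM values, per the file headers. Among tools, Cufflinks, DESeq, HISAT2 and TopHat are listed, with the builds GRCm38 and GRCh38, per the submitters' processing notes. These notes state neither versions and roles nor the annotation or strand setting. No counts were given. Since FPKM divides by all fragments of a library, a change in very abundant transcripts shifts all other values.

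Tables were joined by Entrez number. Symbols shown as dates (26) were restored from RefSeq. Depth was estimated from 188 to 214 low values per library of single-transcript genes between 400 and 1600 bases, of which 63.2% to 71.3% lay within 0.15 of a whole fragment, where chance gives 30.0%. That is too few to recover counts. Chi-square per gene between replicates was 1.59 in KO and 1.70 in WT, above the 1 that counting noise gives, so replicates were kept apart.

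The comparison used limma 3.58.1 (R 4.3.3) on log2(FPKM + 1) with a variance trend, with a minimum mean of 1 FPKM per gene and genotype alone in the design. Tests were two-sided, and calls had p under 0.05 after Benjamini-Hochberg adjustment. The fit was tested on simulated data. An exact permutation of 2 against 2 libraries cannot go below p = 0.333. Intervals of fragments cover counting error only. Positions come from GENCODE M21. The members and the 19 related lists were chosen with earlier results of these data known. Named were all members, Anp32b, Pax6 and, per list, up to 4 called genes with the lowest p whose groups did not overlap. Atf4, Col2a1, Col9a1, Col10a1, Id2, Id3, the flanking genes and genes at 0 were named after their values were seen. One gene that the rule names is not reported here. Alternatives were a pseudocount of 0.1, 2 other filters, a replicate block, 4 other scalings and omission of each library.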

Additional observations from a re-analysis of the deposited data

How the results depend on the processing

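Sp7 and Dlx5 were called higher under every alternative that could test them. All of these but the fit without a filter kept the 1 FPKM minimum, which Sp7 and Dlx5 reached only through KO. No support is drawn from their calls or p-values there. Without the filter their adjusted p by limma was 0.000429 and 0.000647, where 24.5% of all genes were called higher. Runx1 and Runx2 were called higher except with the scaling to mesenchyme genes, which was added after seeing the data. That scaling put Runx1 at 0.12 and turned Runx2 to −0.074 and Dlx3 to −0.62. It also gave 0.15 for Runx3, 0.72 for Dlx6 and −0.55 for Msx2. It left 2 members called higher and 2 lower, 215 genes higher and 12645 lower over the whole table, and 37 higher and 99 lower on the related lists. A pseudocount of 0.1 gave 1.21 for Runx3, 3.16 for Dlx6 and −0.36 for Msx2, and TPM gave 0.72 for Runx3 and 1.66 for Dlx6, where by construction the pseudocount weighs less. At a pseudocount of 0.1 Dlx5 (3.34) was above Sp7 (3.26), so their order depends on the pseudocount. With TPM 1667 genes were called lower. With 1 library left out, Msx1 ran from −0.33 to −0.30 without a call, so the members called lower numbered 0 each time, and Msx2 ran from −0.28 to −0.03. Over the alternatives the adjusted p of Sp7 ran from 6.57e-07 to 0.0016 and that of Dlx5 from 7.8e-06 to 0.0033. At 5 FPKM in at least 2 libraries no member could be tested. With the replicate number as a block, 4781 genes were called higher and 3047 lower, and no call on a member changed. Same-numbered libraries shared little (correlation over genes 0.044), so the block is not a pairing. Depth limits Dlx6, Runx3 and the WT level of Dlx5, which rest on few fragments.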
